A study of Mus musculus with 41 samples.

Results

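The 29 old mice of this bone RNA-seq series were divided by how much Cdkn1a their bone contained. Cdkn1a encodes p21, an inhibitor of cyclin-dependent kinases that holds cells in cell cycle arrest and is 1 of the main markers of cellular senescence beside p16. Its level was expressed as CPM, the Cdkn1a count divided by the total count of the mouse and multiplied by 1000000. Within the 13 vehicle-treated and the 16 AP-treated old mice separately, mice above the median were called high-Cdkn1a and mice below it low-Cdkn1a, and the vehicle mouse at the median was left out. This gave 14 high-Cdkn1a mice (6 vehicle, 8 AP) and 14 low-Cdkn1a mice (6 vehicle, 8 AP), 28 of the 41 mice of the series.

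All mice carried the INK-ATTAC transgene on a C57BL/6 background, and the study's methods give them as female. The p16Ink4a promoter drives the transgene, so that the agent AP20187 (AP) acts on cells in which that promoter is active. From 20 months of age, old mice received vehicle or AP at 10 mg/kg, 2 times a week for 4 months, and the 12 young mice (labelled 6 to 12 months) received vehicle. RNA came from the tibial diaphysis after centrifugation of the bone. The labels give no batch, littermates or cages. The mice were chosen on a measured value and not assigned, so every difference below is covariation with Cdkn1a between mice of the same age and treatment.

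Cortical bone holds osteoblasts, which secrete and mineralise type I collagen, and osteocytes, the osteoblast-derived cells embedded in it. Osteoclasts resorb it. Collagen I needs a dedicated set of enzymes and chaperones in the endoplasmic reticulum for hydroxylation, folding and export, and Wnt and BMP ligands are known to promote osteoblast formation. p21 rises in cells that leave the cell cycle to differentiate as well as in damaged cells, and its classical inducers are p53 and TGF-beta.

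Cdkn1a was measured well in every mouse, with counts from 2350 to 11192. In vehicle mice it ranged from 102.4 to 140.2 CPM in the low and from 145.7 to 215.7 CPM in the high group, with medians of 124.2 and 162.0. In AP mice the ranges were 43.8 to 114.4 CPM and 117.8 to 258.8 CPM, with medians of 101.0 and 135.9. These values made the groups and are a description only. The border was narrow. The vehicle mice next to it had 140.2 and 145.7 CPM around the mouse left out at 142.2, and the AP mice 114.4 and 117.8 CPM. AP mice 19, 18 and 27, at 43.8, 67.9 and 258.8 CPM, lay farthest from the AP median on the log scale, and young mice ranged from 82.3 to 146.3 CPM.

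**Figure D1:**
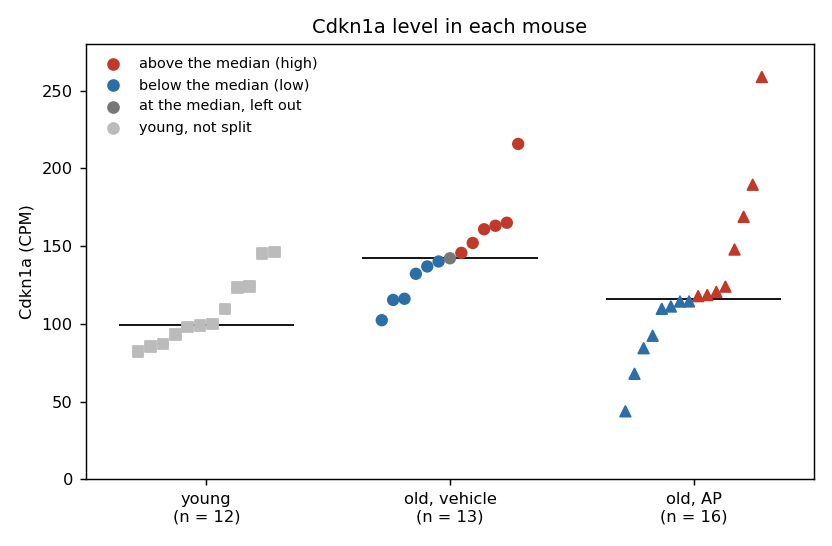
Cdkn1a in CPM (vertical axis) in each of the 12 young, 13 old vehicle and 16 old AP mice, with a line at each group's median and colours for the high, low, left-out and undivided mice. The mice beside the medians are close to each other (140.2 and 145.7 CPM in vehicle, 114.4 and 117.8 in AP), and the spread is widest in AP mice.

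Total counts were 37028959 to 75942717 in low and 38345257 to 53935498 in high mice, and the mean number of genes with a count was 24257.5 in low and 23837.1 in high mice. The total is the divisor of the CPM that divided the mice, so its difference is a description and no test of it is given. The number of genes with a count ran from 23531 to 25503 in low and from 23101 to 24320 in high mice. It depends on the total and is also given as a description. The defining bone markers were present in all 28 mice: the 10 osteoblast markers summed to 6286 to 79970 CPM and the 9 osteocyte markers to 331.5 to 3717 CPM. The 24 skeletal muscle markers summed to 15020 to 167600 CPM, the 13 neutrophil markers to 4422 to 38870 and the 11 erythroid markers to 1785 to 21510, so the bones also held RNA of muscle and marrow, in amounts that varied between mice. In such bulk RNA, fewer cells of a type and less RNA per cell cannot be told apart.

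With treatment as a covariate, 185 of 19136 tested genes passed an adjusted p of 0.05 and a log2 difference of 0.5 between high and low mice (edgeR quasi-likelihood test, 0.967% of genes). Of these, 165 were higher (0.862%) and 20 lower (0.105%) in high-Cdkn1a mice, and 4543 genes (23.7%) had an unadjusted p under 0.05. The genes that rose included those of osteoblasts, of collagen folding and of Wnt and BMP ligands, and those that fell included the stefin A protease inhibitors. The calls stood at the edge of the threshold, since 182 of the 185 had an adjusted p of 0.049 or more. The 185 also include 22 gamma protocadherin rows that overlap in the genome and share reads (158.2 to 222.2 CPM, log2 differences 0.59 to 0.61), which are close to 1 measurement. The balance of higher and lower calls depended on how Cdkn1a was scaled. When the mice were divided on Cdkn1a after TMM scaling, which moved 6 mice, 206 genes passed, of which 12 were higher and 194 lower, and 10 were among the 185. In that division Ifitm5 had a log2 difference of 0.57, Serpinh1 of 0.50 and Rpl39l of 0.88, in the same direction but not past the threshold, while Stfa2l1 (-1.17) and Cd33 (-0.61) passed. On the division described above, DESeq2 gave 515 higher and 266 lower genes, whereas edgeR gave 4 genes with the size factors of DESeq2, 3 without the filter on low counts, and 0 with marrow markers or depth as covariates (2686 and 2995 at an unadjusted p under 0.05).

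The count depended on single mice. Without vehicle mouse 6, 8, 15, 16, 20, 21 or 23, or without AP mouse 4, 12, 19, 24, 27, 28 or 29, it was 0 in edgeR, although 3513 to 5454 genes had an unadjusted p under 0.05 over all 28 such fits. Without AP mouse 3, 9, 10, 17 or 18 it was 4, 25, 3, 2 and 2. It was 1032 without vehicle mouse 2, 774 without 7, 475 without 22 and 277 without 14, and 383, 375, 451 and 498 without AP mouse 5, 11, 25 and 26, while leaving out vehicle mouse 13 gave 212. A model that uses the Cdkn1a level itself was less close to the threshold, and its slopes are given beside the differences of the groups. Per 1 unit of log2 Cdkn1a over all 29 old mice, again with treatment as a covariate, 1555 of 20388 genes rose (7.63%) and 1824 fell (8.95%). Both models use the same mice and are no independent evidence of each other. Without AP mice 18, 19 and 27 the calls were fewer: in the 26 other mice 906 of 19907 genes rose (4.55%) and 81 fell (0.407%). The slopes themselves were not smaller for the genes called between the groups, with a median of 0.87 in 29 and 1.06 in 26 mice over the 165 higher genes and of -0.88 and -1.27 over the 20 lower genes.

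**Figure D2:**
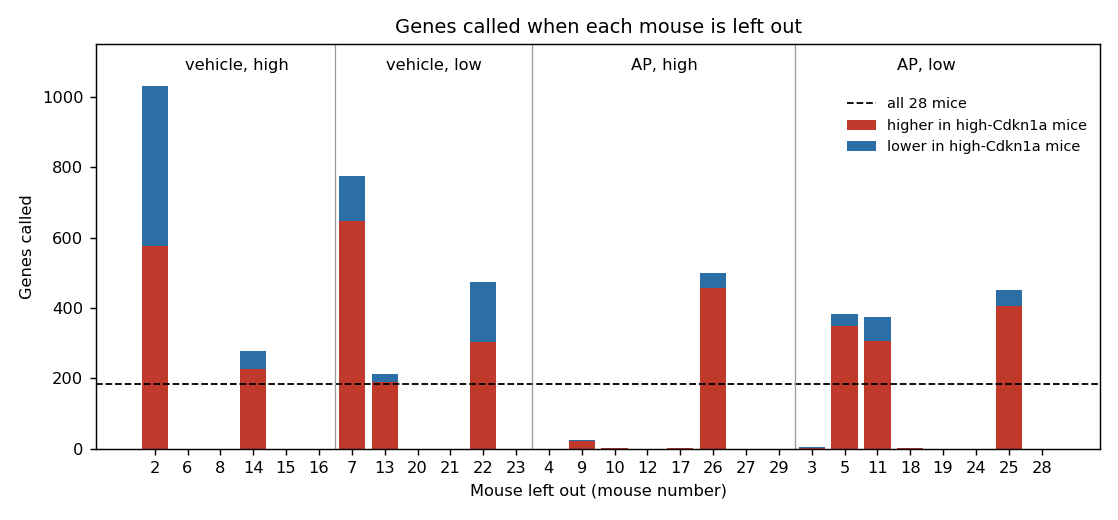
Number of genes called higher (red) and lower (blue) in high-Cdkn1a mice (vertical axis) when each of the 28 mice is left out in turn (horizontal axis, mouse number, grouped by treatment and Cdkn1a). The dashed line marks the 185 genes of all 28 mice, and the counts run from 0 to 1032.

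The promoters of 4 genes are shown because these genes stand for the rise and the fall, 2 for each. They are the 250 bases before the transcription start in RefSeq, assembly GRCm38.p6, written 5′ to 3′ on the strand of the gene. Serpinh1 (chr7:99353240-99353489, minus strand) and Ifitm5 (chr7:140950244-140950493, minus strand) rose with Cdkn1a, and Stfa1 (chr16:36276898-36277147, plus strand) and Stfa2l1 (chr16:36156561-36156810, plus strand) fell. Capitals mark 2 motifs searched on both strands, the GC box GGGCGG in the first pair and the core of the RUNX motif, ACCACA, in the second. A TATA box, TATAAA, was also searched and not matched in these windows.

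Serpinh1: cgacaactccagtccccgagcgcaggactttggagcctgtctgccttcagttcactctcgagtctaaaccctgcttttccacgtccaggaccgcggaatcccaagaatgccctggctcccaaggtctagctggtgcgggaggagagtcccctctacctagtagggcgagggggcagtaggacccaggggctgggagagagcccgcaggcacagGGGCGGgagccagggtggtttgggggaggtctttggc
Ifitm5: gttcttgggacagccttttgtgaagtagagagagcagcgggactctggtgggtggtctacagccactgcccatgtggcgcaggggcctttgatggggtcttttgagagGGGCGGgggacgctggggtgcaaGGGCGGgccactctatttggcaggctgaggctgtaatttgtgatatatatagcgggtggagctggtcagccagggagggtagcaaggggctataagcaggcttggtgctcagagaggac
Stfa1: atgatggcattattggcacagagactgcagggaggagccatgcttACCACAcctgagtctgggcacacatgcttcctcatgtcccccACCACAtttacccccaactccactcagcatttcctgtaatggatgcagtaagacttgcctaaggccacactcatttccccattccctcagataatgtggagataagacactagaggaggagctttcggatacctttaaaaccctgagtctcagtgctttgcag
Stfa2l1: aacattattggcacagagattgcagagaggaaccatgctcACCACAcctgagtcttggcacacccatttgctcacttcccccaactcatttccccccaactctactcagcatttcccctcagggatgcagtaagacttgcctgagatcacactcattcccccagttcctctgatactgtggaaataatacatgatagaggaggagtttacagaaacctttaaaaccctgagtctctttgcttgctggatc

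The GC box occurred 1 time in Serpinh1 and 2 times in Ifitm5, and the RUNX core 2 times in Stfa1 and 1 time in Stfa2l1. Over the 12161 promoters of tested genes with a window of this length, 55.3% held a GC box, 11.4% a RUNX core and 7.3% a TATA box. The Stfa1 and Stfa2l1 windows matched each other in 206 of 255 aligned columns (80.8%).

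Of the 10 osteoblast markers, 2 passed between the groups, Ifitm5 and Omd, both higher in high-Cdkn1a mice. Ifitm5, a membrane protein of mineralising osteoblasts (ENSMUSG00000025489, chr7:140948963-140950239 in mm10), was at 37.1 to 58.8 CPM (median 48.3) in high and 12.6 to 55.5 CPM (median 22.8) in low vehicle mice. In AP mice it was at 18.4 to 76.2 CPM (median 45) in high and 8.69 to 39.7 CPM (median 18.8) in low mice. The ranges overlapped in both treatments, but 13 of 14 high mice were above the median of the low mice of their own treatment. The log2 difference was 1.0 ± 0.23 (SE, 14 against 14 mice). Omd, the matrix proteoglycan osteomodulin, was higher by a log2 difference of 0.68 ± 0.17 and no other marker of the 10 passed. The median log2 difference of the 10 was 0.73, beside 0.003 over all genes tested. In the slope model all 10 osteoblast markers rose, with a slope of 1.24 for Col1a1 and 1.19 for Sp7 (osterix, a transcription factor osteoblasts require), and 5 rose in the 26 mice, where the median slope was 1.34 instead of 1.07.

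Col1a1, a chain of type I collagen, shows how wide the mice were spread. It was at 12095 to 29033 CPM (median 21562) in high and 4949 to 37963 CPM (median 12848) in low vehicle mice, and at 6125 to 28489 CPM (median 15432) in high and 2552 to 25305 CPM (median 6857) in low AP mice. Its log2 difference of 0.74 ± 0.32 did not pass (edgeR quasi-likelihood test, Benjamini-Hochberg adjusted p = 0.156). The low vehicle mouse at 37963 CPM exceeded every high mouse.

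Tmem119, a transmembrane protein of osteoblasts, was at 88.5 to 151.7 CPM (median 128.5) in high against 33.9 to 152.7 CPM (median 57.3) in low vehicle mice, and at 55.6 to 202.8 CPM (median 111.9) against 36.6 to 93 CPM (median 53.5) in AP mice. Every one of the 14 high mice was above the low median of its own treatment, and the log2 difference was 0.96 ± 0.20. Clec11a, the bone growth factor osteolectin, rose by 0.83 ± 0.16, Mmp2, a gelatinase, by 0.78 ± 0.18, and Tnn, the matrix protein tenascin-N, by 1.21 ± 0.29 on the same log2 scale.

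Among the 3 genes with the lowest adjusted p, the largest difference was that of Rpl39l, a copy of ribosomal protein L39. It was at 4.25 to 12.6 CPM (median 6.91) in high and 1.43 to 3.53 CPM (median 2.63) in low vehicle mice, without overlap. In AP mice it was at 2.62 to 12.8 CPM (median 6.26) and 0.79 to 4.66 CPM (median 2.82), with overlap. Its log2 difference was 1.36 ± 0.25 (edgeR quasi-likelihood test, Benjamini-Hochberg adjusted p = 0.0372). Reads of Rpl39l could be confused with other L39 copies, and the counting rule for such reads is not given in the sources used here. Cox4i2, a subunit of cytochrome c oxidase, with 0.58 ± 0.10, and Sfrp1, a secreted Wnt inhibitor, with 0.56 ± 0.10, had the same adjusted p of 0.0372 in this edgeR test.

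Of 32 tested genes of collagen modification and folding, a list put together after the values were seen, 9 passed between the groups, all higher, and the median log2 difference of the 32 was 0.57. Serpinh1, the collagen chaperone HSP47 whose promoter is printed above, was at 604.3 to 775.8 CPM (median 726.7) in high and 218.5 to 801.7 CPM (median 362.9) in low vehicle mice, and at 304.5 to 925.1 CPM (median 619.5) and 167.2 to 631.5 CPM (median 305.4) in AP mice. The ranges overlapped in both treatments, and 13 of 14 high mice were above the low median of their own treatment. The log2 difference was 0.86 ± 0.20. Besides Serpinh1 the 9 were Crtap, Leprel2 and Leprel4 of the prolyl hydroxylation machinery, the prolyl isomerases Fkbp7, Fkbp11 and Fkbp14, the chaperone Rcn3 and the cross-linking enzyme Loxl3. In the slope model 24 of the 32 rose and in the 26 mice 22, among them the prolyl 4-hydroxylase subunits P4ha1 (slope 0.55) and P4ha2 (slope 0.65) in 29 mice. Hspa5 (BiP), a general chaperone of the endoplasmic reticulum, had a log2 difference of 0.11 ± 0.08 and did not pass. None of the 14 genes of the heat shock and chaperone list passed in either the groups or the slope of 29 mice (edgeR, 0 and 2 at an unadjusted p under 0.05), and 6 rose by slope with the osteoblast covariate described further on, where 12.6% of all genes rose.

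Of the 44 collagen chain genes, a list also put together after the values were seen, 2 passed in the groups, Col12a1 (0.68 ± 0.17) and Col8a2 (0.80 ± 0.20). In the slope model 20 rose and 5 fell, and in the 26 mice 11 rose, where the median slope of the 44 was 0.945 instead of 0.552. The 5 that fell were Col9a2, Col9a3, Col10a1, Col4a6 and Col6a4, of which the type IX and type X chains are cartilage collagens. In the 26 mice none of these 5 passed (edgeR, 0 at an unadjusted p under 0.05), and the Col10a1 slope was 1.05 instead of -2.33.

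Of the 9 osteocyte markers, 1 passed between the groups, Wnt1, and the median log2 difference of the 9 was 0.68. Wnt1, a ligand known to drive bone formation, was at 2.76 to 6.32 CPM (median 3.94) in high and 0.79 to 4.11 CPM (median 2.03) in low vehicle mice, and at 2.5 to 5.75 CPM (median 3.39) and 0.316 to 2.62 CPM (median 1.94) in AP mice. The AP ranges met only at their ends, and all 14 high mice were above the low median of their own treatment (log2 difference 0.99 ± 0.25). Sost, the Wnt inhibitor sclerostin of mature osteocytes, had a difference of 0.68 ± 0.29, and Dmp1, a matrix protein of osteocytes, of 0.61 ± 0.23, neither of which passed. By slope 8 of the 9 rose (Sost 1.46, Mepe 1.39, Irx5 1.33), and in the 26 mice 6 rose. Fgf23, the phosphate hormone of osteocytes, was the exception, with a slope of 0.02.

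Some ligands of the Wnt and BMP families rose as well. The lists of these families were added after the values were seen. Of 13 tested Wnt ligands 3 passed in the groups: Wnt1, Wnt10b (0.80 ± 0.20) and Wnt5b (0.75 ± 0.19). In the slope model 7 rose and in the 26 mice 6. Of 13 tested BMP ligands 4 passed in the groups: Bmp2 (0.64 ± 0.13), Bmp3 (0.76 ± 0.18), Bmp7 (0.74 ± 0.17) and Gdf7, which is low at a mean of 0.212 CPM. In the slope model 10 rose and in the 26 mice 8. Bmp2 was at 11.1 to 19.9 CPM (median 17.6) in high and 7.26 to 14 CPM (median 8.59) in low vehicle mice, and at 9.58 to 27.7 CPM (median 14.6) and 7.34 to 14.4 CPM (median 10.4) in AP mice. The homeobox factors Dlx5 (0.76 ± 0.19) and Dlx6 (0.74 ± 0.19), which act in osteoblast differentiation, passed too, 2 of 5 Dlx genes tested, which were also listed after the values were seen.

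The gene whose level followed Cdkn1a most closely was Pdgfa, the A chain of platelet-derived growth factor, a mitogen of mesenchymal cells. It was at 42 to 55 CPM (median 51) in high and 26.7 to 50.9 CPM (median 34.6) in low vehicle mice, and at 32.7 to 72.9 CPM (median 42.2) and 14.6 to 40.1 CPM (median 28) in AP mice. Over the 29 old mice, after removal of the treatment means, the Pearson correlation of log2 CPM was 0.911 and Spearman's rho 0.839. It was 0.866 without the most extreme AP mice 19 and 27, 0.683 among vehicle and 0.965 among AP mice. Pdgfa was picked for this value, which is therefore a description. Its slope was 1.02 in 29 and 1.03 in 26 mice. The next closest genes were Rhbdl3 (0.89), Wnt10b (0.879), Pard3 (0.875) and Copz2 (0.875), and at the other end stood Mvb12b (-0.845), Rpa1 (-0.838), Lrrfip1 (-0.799), Sntb1 (-0.799) and Atp8a1 (-0.796). Of 15516 genes at a mean of at least 1 CPM, 532 had a correlation of 0.7 or more and 85 of -0.7 or less.

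**Figure D3:**
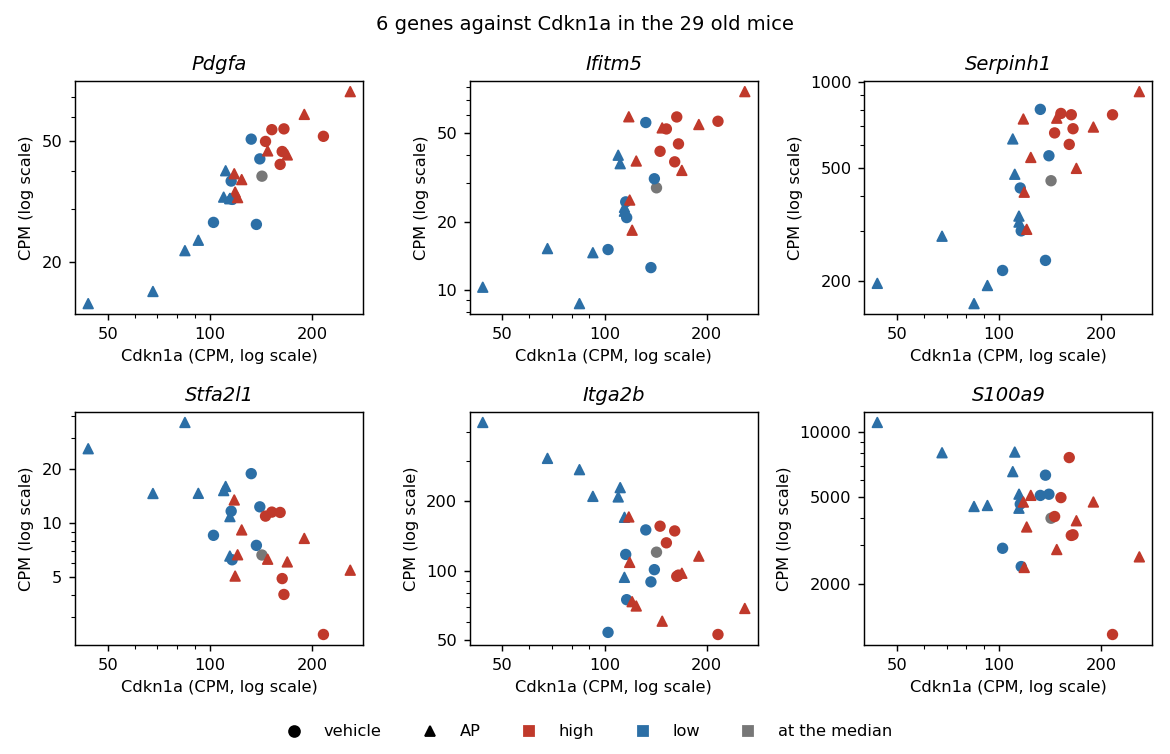
CPM of 6 genes (vertical axes, log scale) against Cdkn1a CPM (horizontal axes, log scale) in the 29 old mice, circles for vehicle and triangles for AP, coloured by Cdkn1a group. Over the 29 mice Pdgfa, Ifitm5 and Serpinh1 rose and Stfa2l1 fell by slope, none of the 4 passed in vehicle mice alone, and the lowest-Cdkn1a AP mice are high in Itga2b and S100a9.

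Of the genes that passed on this division, 20 were lower in high-Cdkn1a mice and 165 higher, whereas the lower ones were more numerous on TMM-scaled Cdkn1a (194 against 12), in AP mice alone (905 against 310) and by slope in 29 mice (1824 against 1555). The 20 included 6 of the 7 tested genes of the stefin A cluster on chromosome 16, inhibitors of cysteine proteases, a list put together after the values were seen. Stfa2l1 was at 2.4 to 11.6 CPM (median 7.95) in high and 6.27 to 18.9 CPM (median 10.1) in low vehicle mice, and at 5.08 to 13.5 CPM (median 6.5) and 6.57 to 36.6 CPM (median 15) in AP mice. The ranges overlapped, and the log2 difference was -0.93 ± 0.23. Stfa1 (-1.06 ± 0.22) and Gm5483 (-0.88 ± 0.21) fell likewise. By slope all 7 fell, and in the 26 mice 5 did. These genes belong to 1 multigene family, and how reads shared between such copies were counted is not given in the sources used here, so their counts are uncertain. Cd33, a myeloid surface receptor, fell by 0.60 ± 0.16 on the log2 scale, Serpina3b, a serine protease inhibitor, by 1.17 ± 0.28 and Cldn1, a tight junction protein, by 0.56 ± 0.13.

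Neutrophil and megakaryocyte markers were lower in high-Cdkn1a AP mice. No marker of the 13 for neutrophils or of the 6 for megakaryocytes passed in the 28 mice (edgeR, 12 and 5 at an unadjusted p under 0.05). In AP mice alone, where 4.85% of all genes passed as lower, 11 neutrophil and all 6 megakaryocyte markers passed as lower in the high mice. So did 1 of 8 T and NK cell and 1 of 4 mast cell markers. The median log2 difference of the mast cell markers there was positive, at 0.55. None of 11 erythroid, 9 B cell, 9 macrophage or 6 plasma cell markers passed (edgeR, 1, 0, 2 and 2 at an unadjusted p under 0.05). Itga2b, the platelet integrin alpha IIb, was at 60.5 to 171.3 CPM (median 85.5) in high and 93.7 to 440.2 CPM (median 220) in low AP mice. In vehicle mice its ranges were 53 to 156.2 CPM (median 114.1) and 54.1 to 150.5 CPM (median 95.4). The median log2 difference of the megakaryocyte markers was -1.26 in AP and 0.20 in vehicle mice. S100a9, an abundant neutrophil protein, was at 2372 to 5103 CPM (median 3772) in high and 4451 to 11073 CPM (median 5867) in low AP mice, and the neutrophil median was -0.78 in AP and -0.14 in vehicle mice. By slope, 12 neutrophil, 6 megakaryocyte, 9 of 11 erythroid, 7 of 8 T and NK cell markers and 29 of 30 cell cycle genes fell with Cdkn1a in the 29 mice. In the 26 mice none of these passed (edgeR, with 1 neutrophil, 5 megakaryocyte, 1 erythroid, 0 T and NK cell markers and 1 cell cycle gene at an unadjusted p under 0.05). The median slope went from -1.02 to -0.83 for megakaryocyte, from -1.04 to -0.95 for erythroid, from -0.67 to -0.45 for neutrophil and from -1.09 to -0.12 for T and NK cell markers, and from -0.67 to -0.53 for cell cycle genes, so that without AP mice 18, 19 and 27 the calls were lost while only the T and NK cell median among these lists came near 0.

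The 8 high against 8 low AP mice alone gave 1215 of 18657 genes (6.51%), 310 higher (1.66%) and 905 lower (4.85%). This count also varied with single mice: it was 0 without AP mouse 10, 18 or 27, 188 without 9, 192 without 19, 569 without 12, 630 without 4, 677 without 24, 2137 without 17 and 2218 without 11. The 6 against 6 vehicle mice gave 0 of 18452 genes (0%), with 912 genes at an unadjusted p under 0.05 in edgeR and 4 calls in DESeq2. A call in AP and none in vehicle mice is not a difference between them, and the test of that difference gave 0 of 19617 genes (0%), with 2794 at an unadjusted p under 0.05 in edgeR and 23 calls in DESeq2. The AP and vehicle mice share no animals. Of 309 genes higher in high-Cdkn1a AP mice, 265 had a positive log2 difference in vehicle mice, with a median of 0.31. Of 891 genes lower in AP mice, 569 were negative in vehicle mice, with a median of -0.04. Together 69.5% had the same sign, beside 50.4% of all genes tested in both.

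**Figure D4:**
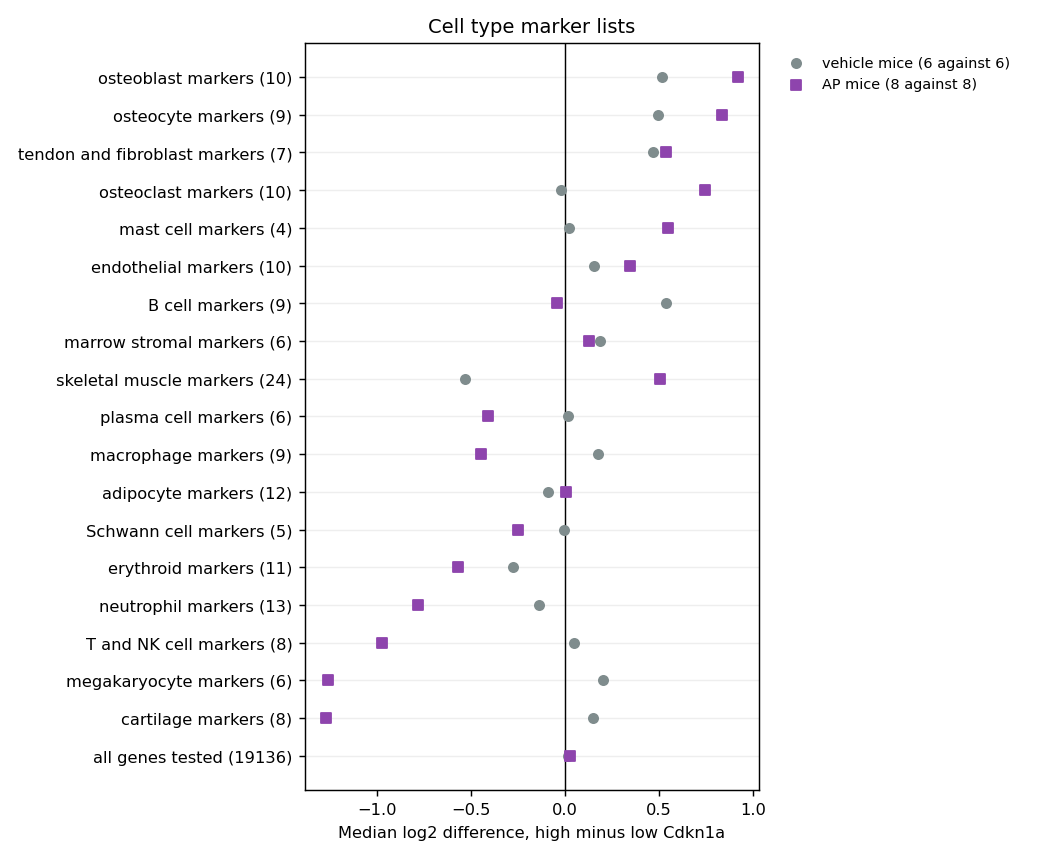
Median log2 difference between high and low Cdkn1a mice (horizontal axis) of each cell type marker list (number of genes tested in brackets), in vehicle mice (circles) and in AP mice (squares). Osteoblast and osteocyte markers have positive medians in both (0.51 and 0.92 for osteoblasts), while megakaryocyte markers are at 0.20 in vehicle and -1.26 in AP mice and skeletal muscle markers at -0.53 and 0.50.

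The osteoblast marker level itself went with the split. Its sum had a median of 47210 CPM in high and 22730 CPM in low mice, with ranges of 14640 to 68570 and 6286 to 79970. With that sum as a covariate, no gene passed between the 14 and 14 mice (edgeR, 2198 at an unadjusted p under 0.05). By slope with the same covariate, 2576 of 20388 genes rose (12.6%) and 2261 fell (11.1%). Pdgfa (slope 0.80), Wnt10b (1.14), Wnt5b (1.08), Wnt1 (1.37), Sost (1.72) and Dmp1 (0.98) rose in that model, whereas Serpinh1 had a slope of 0.40, below the size needed, and Col1a1, which is a large part of that sum itself, of 0.06. Osteocyte markers passed in 6 of 9 and collagen modification genes in 4 of 32. The part that the number of osteoblasts has in the differences between the groups was not tested.

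Regulators that share a pathway with p21 gave no call between the groups of all 28 mice. Of the 27 p53 targets none passed in the groups (edgeR, 3 at an unadjusted p under 0.05). By slope in 29 mice 1 rose and 2 fell (beside 7.63% and 8.95% of all genes), with a median slope of 0.02. Of the 18 CDK inhibitor and RB genes none passed either (edgeR, 8 at an unadjusted p under 0.05). Ccnd1 (cyclin D1) had a log2 difference of 0.55 ± 0.16 and Cdkn1c (p57) of 0.50 ± 0.15, and both rose by slope, by 0.68 and 0.62. Cdk6 had a difference of -0.56 ± 0.18 and fell by slope, by 0.71 in 29 mice. In all, 2 of the 18 rose and 5 fell by slope in 29 mice (beside 7.63% and 8.95% of all genes). In the 26 mice 1 rose and 0 fell (beside 4.55% and 0.407%). The list named TGF-beta targets also holds the ligands Tgfb1, Tgfb2 and Tgfb3. Its members lay mostly on the positive side, with a median log2 difference of 0.36 over 14 genes. None of them was past the threshold (edgeR, 11 at an unadjusted p under 0.05). By slope 7 of these list members rose, among them Id3 (1.09) and Pmepa1 (0.73), and in the 26 mice 4, where the median slope was 0.64 instead of 0.49. In AP mice alone, 1.66% of all genes passed as higher and 4.85% as lower. There, 1 CDK inhibitor and RB gene was higher and 3 were lower, and 2 genes of the TGF-beta list were higher and 1 lower. No p53 target passed in AP mice alone (edgeR, 5 at an unadjusted p under 0.05).

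Cdkn2a, which encodes p16Ink4a and p19Arf and is counted as 1 gene, was at 0.927 to 6.83 CPM (median 3.45) in high and 0.325 to 4.78 CPM (median 1.34) in low vehicle mice. In AP mice it was at 0.607 to 3.7 CPM (median 1.63) and 0.488 to 7.56 CPM (median 0.879). The ranges overlapped in both, and the log2 difference was 0.34 ± 0.42 (edgeR quasi-likelihood test, Benjamini-Hochberg adjusted p = 0.671). Its slope changed sign without AP mice 18, 19 and 27, from 0.37 to -0.14, and passed in neither, and the group difference was -0.13 when the mice were divided on TMM-scaled Cdkn1a. Of 104 tested genes of SenMayo, the senescence gene set the study built, Bmp2 and Mmp2 passed in the groups, beside 0.967% of all genes. By slope 19 rose and 14 fell (beside 7.63% and 8.95% of all genes), with a median slope of 0.15. In the 26 mice 20 rose and 1 fell (beside 4.55% and 0.407%). In AP mice alone 3 were higher and 12 lower (beside 1.66% and 4.85%). By slope with the osteoblast covariate 11 rose and 15 fell (of 104, beside 12.6% and 11.1% of all genes), with a median slope of -0.004. Plat (0.56 ± 0.15), the tissue plasminogen activator, and Pgf (0.63 ± 0.18), placental growth factor, did not pass in the groups, and both rose by slope.

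**Figure D5:**
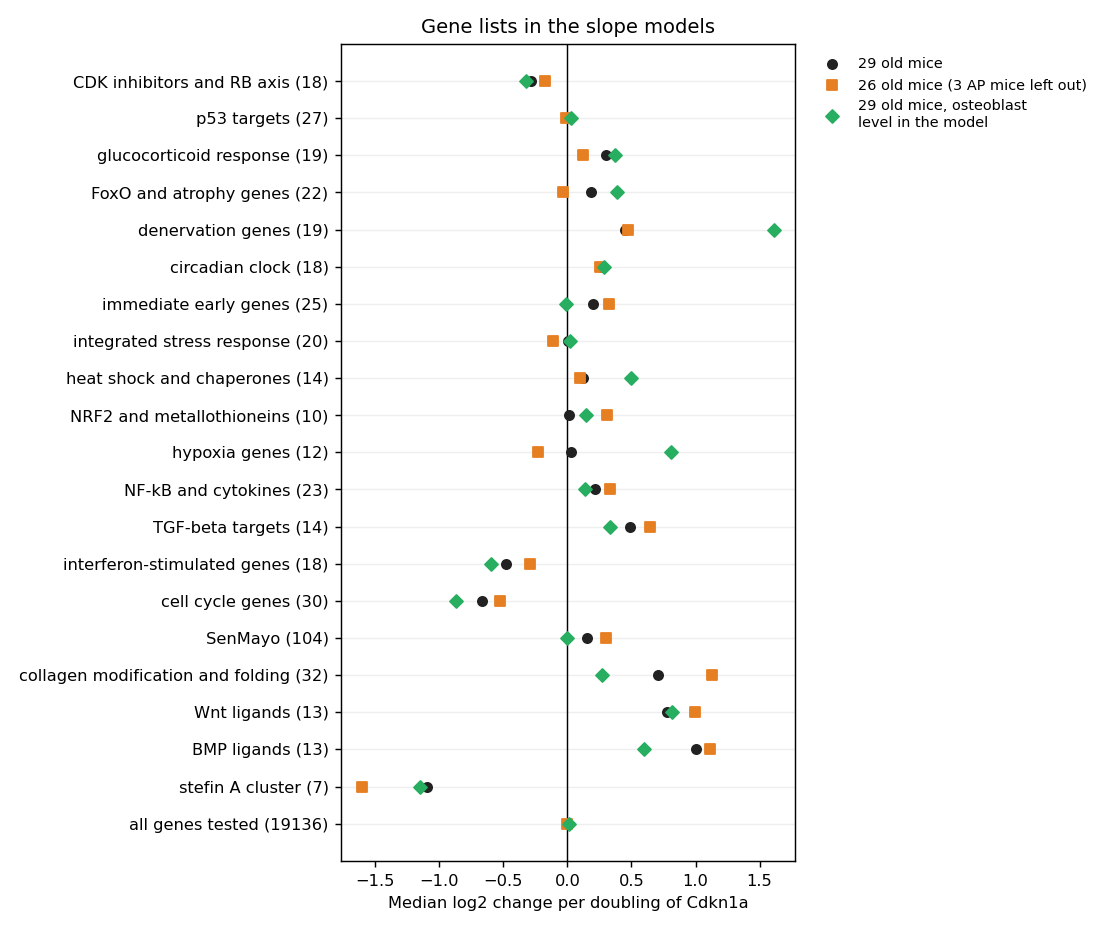
Median log2 change per 1 log2 unit of Cdkn1a (horizontal axis) of each gene list (number of genes tested in brackets) in 29 old mice, in the 26 old mice without AP mice 18, 19 and 27, and in 29 old mice with the osteoblast marker level in the model. The cell cycle list moves from -0.67 in 29 to -0.53 in 26 mice while its number of calls goes from 29 to 0, and p53 targets stay near 0 (0.02 and -0.01).

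In the 12 young mice the slope on Cdkn1a gave 0 of 19315 genes (0%), with 872 at an unadjusted p under 0.05 in edgeR and 5 calls in DESeq2. The osteoblast markers had a median slope of 0.24 there, the megakaryocyte markers 0.24 and the stefin A genes -1.02. These mice were not used to divide the old ones, and of 3277 genes called by slope in the old mice and tested in the young, 75.6% had the same sign, beside 67.7% of all genes tested in both. Of the genes called between the groups, 127 of 184 (69.0%) had the same sign in the young, beside 66.5% of all genes.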

How the data were processed

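RNA-seq of tibial diaphyses gave 1 library per mouse. The authors sequenced on a HiSeq2000 and deposited raw counts per gene for 43346 genes of mm10 (GRCm38), of which 32309 had a count. Per the labels' processing notes, TopHat2 2.0.6 and HTSeq were used. Annotation release and strand setting are not given in the sources used here, so overlapping and antisense genes are uncertain, and the 37 mitochondrial genes were all listed at 0. All 41 columns were used, and groups came from the labels.

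CPM is the count divided by the column total, times 1000000. The split used that CPM within each treatment. Counts were tested with edgeR 4.0.16 in R 4.3.3 (TMM normalisation, filter by expression, quasi-likelihood test, treatment as covariate), Benjamini-Hochberg adjusted over all tested genes, and a gene was called at an adjusted p under 0.05 and a log2 difference over 0.5. Slopes used log2 Cdkn1a CPM, with the threshold of 0.5 applied per 1 log2 unit of Cdkn1a. DESeq2 1.42.0 and other settings were alternatives, and scripts were tested on simulated data. Cdkn1a was left out of all tests. Errors are SE from the edgeR fit, computed as its log2 difference over the square root of F. With 1 library per mouse, p-values measure the spread between these mice.

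The members and gene lists were chosen with earlier results of these data known. Genes named in the text were Cdkn2a, the 10 largest rises and falls and the 10 smallest p among called genes at a mean of at least 1 CPM, up to 4 members of each pathway list by p, the 2 most abundant of each marker list, and the 5 highest and lowest correlations with Cdkn1a. The young mice and the test between treatments gave no called gene to name. Other members of a list described here were chosen after their values were seen. Of the genes selected by this rule, 1 was left out and is not reported here. Total counts were 37028959 to 75942717. The mean squared difference between the counts of any 2 mice of a group was at least 39.7 times the variance from counting error. No 2 mice of a group were therefore duplicates. Promoters came from RefSeq GRCm38.p6, with a window for 12161 of 19092 tested symbols, so no share was computed over a gene list.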

Additional observations from a re-analysis of the deposited data

Results flagged for a closer look

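In 4 of 52 groups tested, the highest mouse stood apart from the others by its gap to the nearest mouse, where chance gives about 1 in 20. Among high AP mice, mouse 12 had 5.748 CPM of Wnt1 (at most 3.89 in the others) and 27.73 CPM of Bmp2 (at most 15.1). Among low vehicle mice, Col1a1 was 37960 CPM in mouse 7 and at most 15430 in the others. Among low AP mice, Cdkn2a was 7.561 CPM in mouse 24 and at most 2.37 in the others. The causes were not tested.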

How the results depend on the processing

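The 185 genes changed in number under most settings. DESeq2 gave 781 (515 higher, 266 lower), edgeR with DESeq2 size factors 4, no filter on low counts 3, no treatment covariate 14, all 41 mice in the fit 798, a skeletal muscle covariate 593, and marrow covariates or a depth covariate 0 (2686 and 2995 at an unadjusted p under 0.05). Among settings chosen after seeing the data, an osteoblast covariate, leaving out AP mice 18, 19 and 27, and leaving out vehicle mice 20 to 23 each gave 0 in edgeR (2198, 2221 and 6159 at an unadjusted p under 0.05). Cdkn1a as a slope gave 3379 genes in 29 mice, 987 without AP mice 18, 19 and 27, 3 in the 13 vehicle mice, 3817 in the 16 AP mice, 4837 with the osteoblast covariate, 1569 with marrow covariates and 4304 without vehicle mice 20 to 23. Leaving out single mice gave 0 to 1032. Dividing the mice by TMM-scaled Cdkn1a moved 6 mice and gave 206 genes, of which 12 were higher and 194 lower (5.83% higher, against 89.2%), with 10 genes shared. In AP mice, 1215 became 2117 with DESeq2, 687 without the filter and 0 without AP mice 18, 19 and 27, with the osteoblast covariate or with marrow covariates (2621, 4595 and 2377 at an unadjusted p under 0.05), and 0 to 2218 without single mice. DESeq2 gave 4 genes in vehicle mice, 23 for the difference between treatments and 5 in young mice, against 0 in each with edgeR. Over the genes that the naming rule selected, 6196 of 6344 values under other settings kept the sign of the group difference, and 1 reversed with a pass in either fit: Lpl, from -0.05 to 0.97 in the slope with the osteoblast covariate. Col10a1, which that rule does not select, passed by slope in 29 mice (-2.33) and had the opposite sign in 26 (1.05), without passing. Why these counts moved was not tested, apart from settings that use fewer mice. No paired analysis was possible because no replicate numbers are shared between groups. Low genes such as Gdf7, at a mean of 0.212 CPM, rest on few counts.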

Other observations

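Muscle genes differed in sign between treatments without passing in either. The 24 skeletal muscle markers had a median log2 difference of -0.53 in vehicle and 0.50 in AP mice. None passed by slope in 29 mice (edgeR, 0 at an unadjusted p under 0.05), and 22 rose once the osteoblast marker level was in the model, in which 12.6% of all 20388 genes rose and 11.1% fell. In that model 13 of the 19 denervation genes also rose, among them the myogenic factors Myog (slope 3.02) and Myod1 (slope 2.24), as did 9 of 12 hypoxia genes and 8 of 22 FoxO and atrophy genes. Osteoclast markers rose by slope in 8 of 10 genes in 29 mice, with Acp5 at 0.88 and Ctsk at 0.84, and none passed in the 26 mice (edgeR, 0 at an unadjusted p under 0.05), where their median slope was 0.75 instead of 0.86. Their median group difference was -0.02 in vehicle and 0.75 in AP mice. Of the 18 interferon-stimulated genes, 7 fell by slope in 29 mice and none passed in 26 (edgeR, 0 at an unadjusted p under 0.05). None of the 9 B cell markers passed by group or slope (edgeR, 0 at an unadjusted p under 0.05).

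Vehicle mouse 16 and AP mouse 10, both high in Cdkn1a, had the highest Ptgs2 (cyclooxygenase 2), at 20.1 and 14.1 CPM against at most 2.76 in the other 27 old mice, and the highest Tubb3 (neuronal tubulin), at 15.6 and 12.2 CPM against at most 8.07. Cxcl5, a neutrophil chemokine, was 16.6 CPM in mouse 16 and 2.5 in mouse 10, against at most 4.75. Ptgs2, Cxcl5 and Tubb3 are the 3 genes that passed by slope in vehicle mice alone (edgeR, adjusted p = 0.0486).

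The 4 vehicle mice numbered 20 to 23 were all low in Cdkn1a. They also had the 4 highest vehicle levels of Nnt, a mitochondrial transhydrogenase, at 160 to 210 CPM against 34.3 to 121 in the other vehicle mice. High levels also occurred elsewhere, at 257 CPM in AP mouse 28 and at 183 and 147 CPM in young mice 31 and 40. Nnt was singled out after its values were seen, and the labels name no batch or litter. In these mice a low Cdkn1a level and whatever the neighbouring numbers share cannot be told apart.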
